A study of Mus musculus with 9 samples.

Results

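The Fbxw cluster of mouse chromosome 9 was examined in growing oocytes of XX, XO, and XY females. The genes were taken by name from the UMI count matrix and the normalized matrix, and 10 of the 28052 genes in the count matrix were included: Fbxw13, Fbxw14, Fbxw15, Fbxw16, Fbxw18, Fbxw19, Fbxw20, Fbxw21, Fbxw22, and Fbxw24. All 10 passed the filter on low counts and were among the 10993 genes tested. The family sum is the sum over these 10 genes, which does not depend on how UMIs of similar copies were divided among the 10. Division with copies outside the 10 can still change it.

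Transcripts were counted in 9 samples, 3 of each genotype, and each sample pooled 30 oocytes, 10 with diameters of 50–55 µm and 20 with diameters of 55–60 µm. All samples are labelled C57BL/6 and 18 dpp (days post partum). XY females and XX females were littermates from B6.Y TIR males crossed with B6 females, so that the XY females carried the Y chromosome of the TIR strain. XO females came from another cross, between Paf carrier males, whose C3H/HeSnJ background had been backcrossed to B6, and B6 females. For XO oocytes, genotype and cross therefore cannot be told apart. In pooled oocytes, fewer cells of a type and less RNA per cell cannot be told apart either. Samples are named by genotype and replicate number, as XX1 to XX3, XO1 to XO3, and XY1 to XY3.

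F-box proteins with WD repeats are the substrate receptors of SCF ubiquitin ligases. In these complexes, Cul1 is the scaffold, Skp1 binds the F-box, Rbx1 brings the ubiquitin-conjugating enzyme, and the WD repeats hold the protein that is to be ubiquitinated. The genes on chromosome 9 belong to a rodent expansion of this family that is known for expression in oocytes. The substrates of most of its members are unknown, and Fbxw15 is known to act on the histone acetyltransferase HBO1.

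The 10 genes lay on the minus strand at chr9:109139447-109702700 (GRCm38), within 563.254 kb, and each was annotated as protein coding with 10 exons. In chromosomal order they were Fbxw21, Fbxw13, Fbxw20, Fbxw14, Fbxw22, Fbxw16, Fbxw19, Fbxw15, Fbxw24, and Fbxw18. Their coding sequences were 1392–1407 bases long. Over the 45 pairs, coding sequences were 79.8–92.3% identical (median 83.2%), with the highest identity between Fbxw14 and Fbxw22 and the lowest between Fbxw14 and Fbxw24. Fbxw14 and Fbxw24 were also the genes with the highest levels.

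Since UMIs mark the 5′ end of transcripts, the start of each transcript decides whether similar copies can be counted apart. The first 150 bases of 9 of the 10 transcripts held no stretch of 100 bases found in another gene. In Fbxw14, the first 250 bases were identical to both coding transcripts of Fbxw28, a gene of the same cluster outside the 10. UMIs of Fbxw14 and Fbxw28 from this stretch cannot be told apart, and their division between these genes is uncertain. The level of Fbxw14, the family sum, and the shares in the family depend on this division.

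Promoter windows from RefSeq (GRCm38.p6), each 250 bases before to 50 bases after the annotated start, were found for 8 of the 10 genes, and not for Fbxw13 and Fbxw22. They were 83.4–95.2% identical over 28 pairs (median 90.2%), with the highest identity between Fbxw14 and Fbxw19. The 150 bases before the start, written 5′ to 3′ on the minus strand, are shown for the pair with the highest levels, Fbxw24 (chr9:109626060-109626209) and Fbxw14 (chr9:109287677-109287826), for Fbxw21 (chr9:109162023-109162172), whose share of the family varied among samples, and for Fbxw20 (chr9:109234755-109234904), which differs from the others at the AT-rich stretch. Capitals mark TTTAAAA, an AT-rich stretch, as well as the E-box letters CAGCTG.
Fbxw24: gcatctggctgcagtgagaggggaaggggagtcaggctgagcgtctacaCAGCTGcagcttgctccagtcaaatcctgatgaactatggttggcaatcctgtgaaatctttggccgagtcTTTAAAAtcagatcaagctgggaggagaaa
Fbxw14: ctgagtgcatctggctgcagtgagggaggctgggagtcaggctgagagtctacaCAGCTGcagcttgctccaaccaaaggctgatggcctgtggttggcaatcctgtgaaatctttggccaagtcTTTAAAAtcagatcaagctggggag
Fbxw21: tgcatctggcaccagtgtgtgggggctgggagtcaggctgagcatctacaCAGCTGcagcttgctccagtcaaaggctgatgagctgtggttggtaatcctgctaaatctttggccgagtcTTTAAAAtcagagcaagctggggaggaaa
Fbxw20: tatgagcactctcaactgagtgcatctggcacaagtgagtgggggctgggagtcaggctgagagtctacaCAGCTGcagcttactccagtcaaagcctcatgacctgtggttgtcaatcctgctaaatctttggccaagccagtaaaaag
The letters TTTAAAA, looked for after the sequences had been seen, were present in 7 of the 8 windows, all but that of Fbxw20, and in 8.74% of all 32851 RefSeq windows of the same length. CAGCTG, an E-box, was present in 8 of 8 windows and in 16.3% of all windows. Both strands were searched, and these motifs do not overlap each other. TATAAA was found in 0 of 8 windows (13.6% of all), CACGTG in 0 of 8 (7.15%), TAATTG in 0 of 8 (2628 of the 32851), and TGATTG in 1 of 8, that of Fbxw16 (4613 of the 32851). The 8 windows are similar copies, 83.4–95.2% identical, so they are not independent observations, and enrichment of motifs was not tested. These counts describe letters in the windows, and the binding of factors was not measured.

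Genes received between 2130145 and 3157338 UMIs per sample, with 18334–21044 genes detected, and ERCC spike-ins made up 0.204–0.862% of UMIs. Of the 13 oocyte markers, 12 were detected in every sample, while Sohlh1, a marker of primordial and primary follicles, was at or near 0. Oocyte markers summed to 27405–29430 normalized CPM in the XX samples, 18884–43707 in the XO samples, and 19885–27606 in the XY samples. Summed markers of granulosa cells (6 of 10 in the matrix) reached 46.6–90.9 normalized CPM, those of theca and stroma (5 of 7) 0.70–4.99, and those of blood and endothelium (2 of 5) 16.1–132. Normalized CPM are counts per 1000000 gene UMIs, divided by a factor per sample from the spike-ins. This factor did not follow the amount of spike-ins. XX3, with the lowest share of spike-ins (0.204%), had the highest factor (1.25), and XY1, with the highest share (0.862%), had 1.01. XO1 stood apart from XO2 and XO3, and the comparisons with XO oocytes are given with and without it. Normalized CPM were not divided by transcript length, since each molecule carries a single UMI at its 5′ end.

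The 10 genes together held 1.55–8.58% of all gene UMIs. Their sum reached 37902, 42797, and 23114 normalized CPM in XX1 to XX3, 102423, 23057, and 22002 in XO1 to XO3, and 54356, 29247, and 20896 in XY1 to XY3. XO1 stood far above the other 8 samples, XY1 came next, and replicate 3 was the lowest of its genotype in each case. Means were 34604 ± 10248 for XX, 49161 ± 46130 for XO, and 34833 ± 17416 for XY oocytes (SD, n = 3 each).

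As a share of all gene UMIs, which does not use the spike-ins, the family held 4.27, 4.99, and 2.88% in XX1 to XX3, 8.58, 1.95, and 1.55% in XO1 to XO3, and 5.49, 3.38, and 2.19% in XY1 to XY3. The means were close to each other, with 4.05 ± 1.07, 4.03 ± 3.95, and 3.69 ± 1.67% (SD, n = 3 each). In UMIs, the family counted between 38974 in XO3 and 197819 in XO1, so that counting error was small beside the spread between samples. With 5 further Fbxw genes of the same region (Fbxw23, Fbxw25, Fbxw26, Fbxw27, and Fbxw28), the share ranged from 1.86% in XO3 to 10.2% in XO1.

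**Figure D1:**
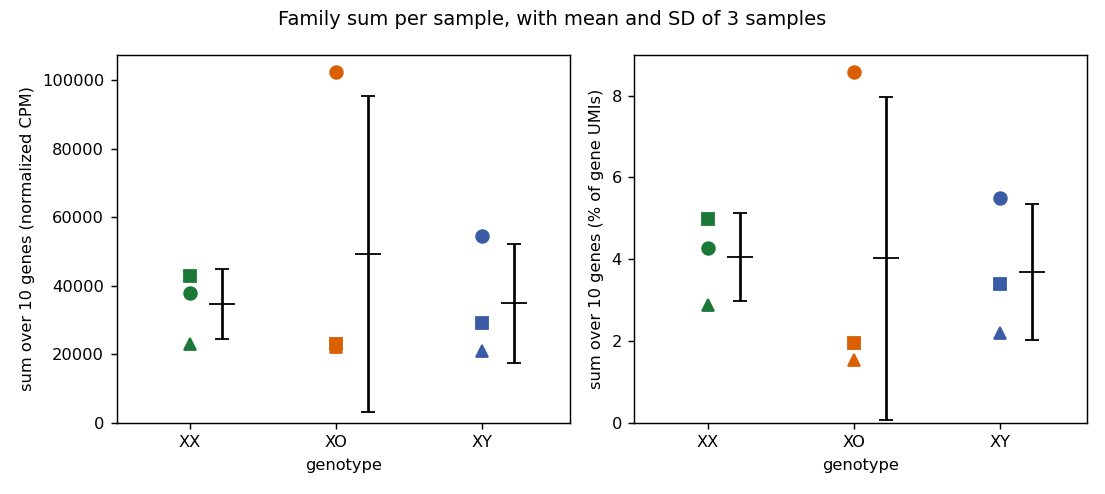
Sum over the 10 Fbxw genes in each of the 9 samples, as normalized CPM (left) and as percent of gene UMIs (right), by genotype on the x axis. Circles, squares, and triangles are replicates 1, 2, and 3, and bars give the mean and SD of 3 samples. XO1, at 102423 normalized CPM and 8.58%, lies above the other samples, while XO2 and XO3 lie at or below 23057 normalized CPM.

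XO1 was 4.55 times as high as the mean of XO2 and XO3 in the family sum, and XY1 was 2.17 times as high as the mean of XY2 and XY3. XX1 was 1.15 times as high as the mean of XX2 and XX3. For comparison, among 7276 genes whose mean was 10 normalized CPM or more, the median ratio was 0.787 for XO, 1.01 for XY, and 1.09 for XX oocytes. A ratio at least as high as that of the family was found for 1.03% of these genes for XO, 2.52% for XY, and 39.1% for XX oocytes. The high level in XO1 was thus not shared by most genes.

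All 10 genes were higher in XO1 than in XO2 and XO3, by 3.69 times in Fbxw15 to 7.40 times in Fbxw21 over the mean of both. Over the 9 samples, log2 levels of the 10 genes correlated with each other at r = 0.657–0.995 (median 0.975, 45 pairs). The points are the same 9 libraries with the same scaling factors, and the coefficients are a description. Apart from Sohlh1 and Oosp1, all oocyte markers had the opposite order, with lower levels in XO1 than in XO2 and XO3. Zp2, a zona pellucida protein, was at 4919 normalized CPM in XO1 and at 14837 and 16248 in XO2 and XO3, and Dppa3 was at 537 against 7623 and 7312. Oosp1, an oocyte-secreted protein, was at 9137 in XO1 against 2494 and 2495 in XO2 and XO3. The part of these differences in the level of the family was not tested.

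Fbxw24 had the highest mean of the family and the 7th highest of all genes. Its levels were 8020, 9140, and 4585 normalized CPM in XX1 to XX3, 22183, 4837, and 4597 in XO1 to XO3, and 12719, 6098, and 4553 in XY1 to XY3. Fbxw14 followed with 7894, 9076, and 4935 for XX, 19551, 5097, and 4773 for XO, and 10363, 5907, and 4197 for XY, in the same order of replicates. Both genes followed the family sum, with XO1 the highest and XO2, XO3, XX3, and XY3 close to each other.

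Fbxw15, known to act on HBO1, came next. It was at 3678, 4732, and 2379 normalized CPM in XX1 to XX3, 9747, 2848, and 2439 in XO1 to XO3, and 6594, 3639, and 2459 in XY1 to XY3. Fbxw21 was at 2832, 3336, and 1821 for XX, 15739, 2380, and 1876 for XO, and 4481, 2450, and 1632 for XY. Outside XO1 its levels lay below those of Fbxw15 in each sample, whereas in XO1 it exceeded Fbxw15. Fbxw13, the lowest, was at 3041, 1574, and 953 for XX, 2395, 583, and 554 for XO, and 1607, 1261, and 632 for XY. It was the only member whose highest sample was not XO1 but XX1.

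The other 5 genes lay between these. Fbxw16 ranged from 1862 in XO2 to 8196 in XO1, Fbxw18 from 1485 in XO2 to 7543 in XO1, and Fbxw20 from 1480 in XY3 to 6083 in XO1. Fbxw22 ranged from 1142 in XO3 to 6060 in XO1, and Fbxw19 from 956 in XY3 to 4927 in XO1. In these 5 genes, too, XO1 was the highest sample, and XO2 and XO3 lay at or near the lowest.

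**Figure D2:**
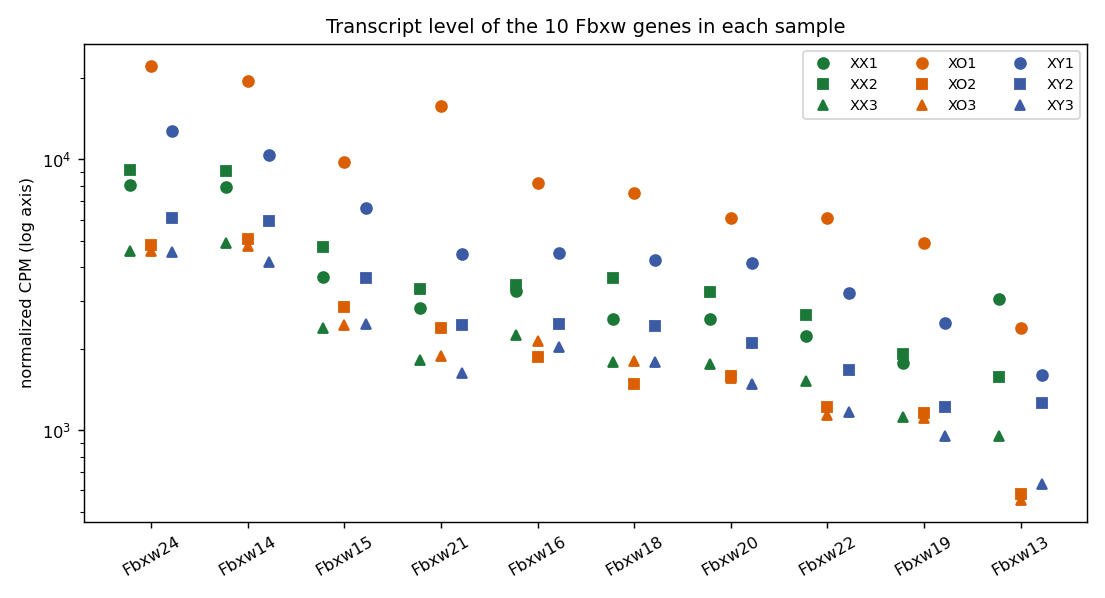
Normalized CPM (log axis) of each of the 10 Fbxw genes, ordered by their mean over 9 samples. Colors give the genotype and circles, squares, and triangles the replicates 1, 2, and 3. XO1 is the highest sample for 9 genes, with 22183 normalized CPM for Fbxw24, and XX1 for Fbxw13, with 3041.

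By mean level the order was Fbxw24, Fbxw14, Fbxw15, Fbxw21, Fbxw16, Fbxw18, Fbxw20, Fbxw22, Fbxw19, and Fbxw13, with means of 8526 down to 1400 normalized CPM. Not all steps of this order held in each sample. Fbxw24 exceeded Fbxw14 in 6 of 9 samples, so these neighbours did not differ beyond their spread. Fbxw21 exceeded Fbxw16 in only 2 of 9 samples, XO1 and XO2, and was lower in the other 7. Its higher mean came with its level of 15739 normalized CPM in XO1, against 8196 for Fbxw16. Fbxw14 exceeded Fbxw15, Fbxw20 exceeded Fbxw22, and Fbxw22 exceeded Fbxw19 in 9 of 9 samples. The remaining steps held in 7 or 8 of 9 samples. Levels neither rose nor fell steadily along the cluster, as the plot of levels by position shows, and Fbxw14 and Fbxw24 lay apart with 4 members between them.

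**Figure D3:**
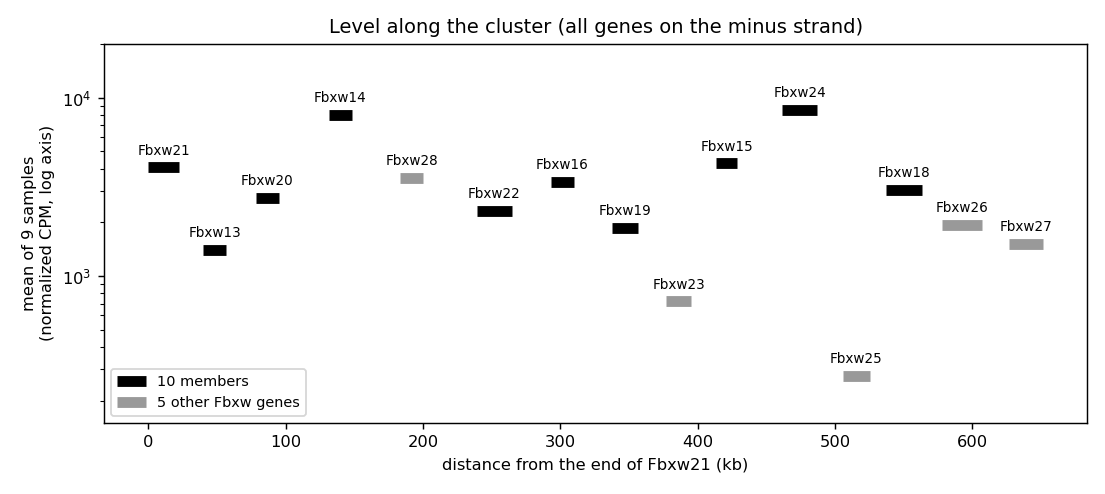
Mean of 9 samples (normalized CPM, log axis) against the distance in kb from the end of Fbxw21, for the 10 genes (black) and 5 other Fbxw genes of the region (grey). Bars span each gene, and the highest, Fbxw24 with 8526 and Fbxw14 with 7977 normalized CPM, are separated by genes of lower level.

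The composition of the family, given as the share of each gene in the UMIs of the 10, does not depend on the scaling of samples. Fbxw24 made up 21.3 ± 0.962% and Fbxw14 20.6 ± 1.09% (SD over all 9 samples), while Fbxw15 made up 11.1 ± 1.12%. For 8 of the genes the SD over the 9 samples was 4.51–10.0% of the mean share, although the family sum varied 4.90-fold. Fbxw21 and Fbxw13 were the exceptions, with 27.5 and 47.4%.

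Fbxw21 made up 7.47, 7.80, and 7.88% of the family in XX1 to XX3, 15.4, 10.3, and 8.53% in XO1 to XO3, and 8.24, 8.38, and 7.81% in XY1 to XY3. The 3 XO samples were above all XX and XY samples. The smallest gap was between XO3 (95% Wilson interval 8.25–8.81%) and XY2 (8.20–8.56%), which overlapped within counting error. Without XO1, the mean share in XO oocytes was 9.42% in place of 11.4%.

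For Fbxw13 the order was the opposite. Its share was 8.02, 3.68, and 4.12% in XX1 to XX3, 2.34, 2.53, and 2.52% in XO1 to XO3, and 2.96, 4.31, and 3.02% in XY1 to XY3. The 3 XO samples were below all others, and the interval of the highest, XO2 (2.39–2.68%), did not reach that of the lowest other sample, XY1 (2.86–3.06%). The interval covers counting error only. The XX mean of 5.27% rested on XX1, without which it was 3.90%, above the 3.43% of XY oocytes. Shares of other genes also did not overlap between some genotypes. Fbxw15 made up 9.71–11.1% in XX and 11.8–12.4% in XY samples, and Fbxw14 20.8–21.4% against 19.1–20.2%. Nor did the shares of Fbxw22 overlap between XX and XY samples, or those of Fbxw19 between XO and XY samples. No test was made of the shares.

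**Figure D4:**
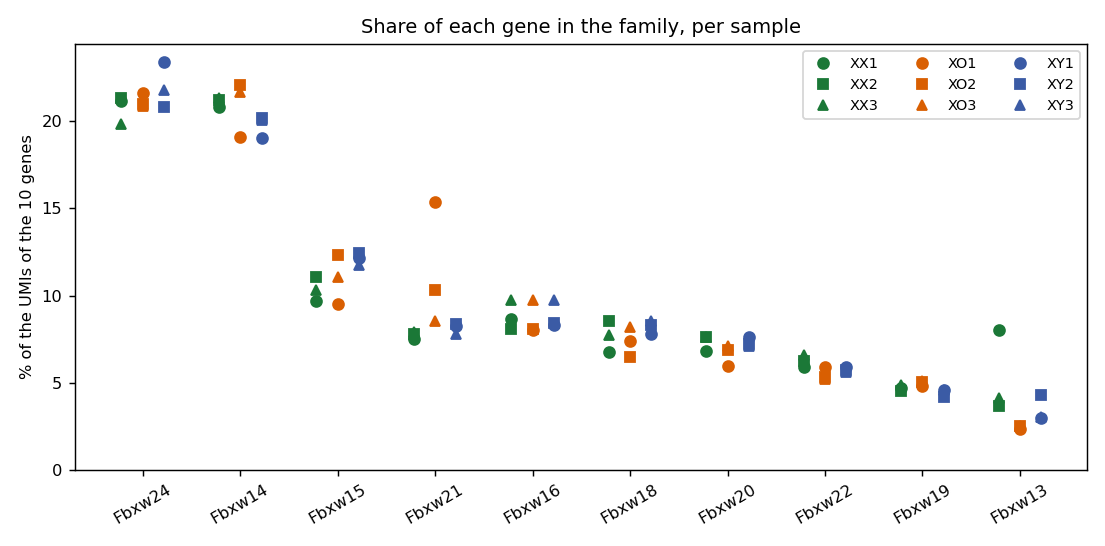
Share of each gene in the UMIs of the 10 Fbxw genes (percent), per sample, with genotype by color and circles, squares, and triangles for replicates 1, 2, and 3. Most genes keep their share within a narrow range, while Fbxw21 reaches 15.4% in XO1 and Fbxw13 reaches 8.02% in XX1.

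XX and XO oocytes differ in the presence of a second X chromosome and in the cross. None of the 10 genes was called, in either direction, by edgeR's quasi-likelihood test at an unadjusted p below 0.05. Among all genes tested, 1.4% were called higher and 16.7% lower in XX than XO oocytes. After Benjamini-Hochberg adjustment 0 members were called, with 0.0% of all genes, and DESeq2 called 0 members as well. The levels of XX and XO samples overlapped for all 10 genes, whereas 16.4% of all genes tested did not overlap. The log2 fold changes of XX over XO ranged from -1.32 ± 0.82 for Fbxw21 (SE, edgeR adjusted p = 0.388) to 0.66 ± 0.69 for Fbxw13 (adjusted p = 0.608). The median was -0.44 over the 10 genes and -0.46 over all genes tested, so that relative to all genes the family differed by 0.018 on the log2 scale.

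These values rested on XO1. When XO1 was left out, the median of the 10 genes moved from -0.44 to 0.65, while that of all genes moved from -0.46 to -0.40. In this fit Fbxw13 was called higher in XX than XO oocytes, with a log2 fold change of 1.76 ± 0.54 (SE, edgeR adjusted p = 0.0365). It was the only one of the 10, beside 3.19% of all genes called higher and 31.9% called lower, and the other 9 genes had log2 fold changes of 0.38–0.91 with edgeR adjusted p-values of 0.178 or more. In normalized CPM, Fbxw13 was at 953–3041 in the 3 XX samples and at 583 and 554 in XO2 and XO3.

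The call also depended on covariates. The study fitted surrogate variables, which are estimated from the expression values to stand for unknown batch effects. With 1 surrogate variable as covariate in edgeR, 7 of the 10 genes were called lower in XX than XO oocytes, beside 32.0% of all genes, and Fbxw13 was called higher, beside 6.1%. After adjustment 7 of these 8 genes remained below 0.05, all but Fbxw18. The log2 fold change of Fbxw21 was -1.03 ± 0.13 and that of Fbxw13 was 0.69 ± 0.22 (SE). The surrogate variable was estimated from the same counts, these genes included. Its values were 0.096, 0.155, and -0.144 in XX1 to XX3, 0.596, -0.381, and -0.493 in XO1 to XO3, and 0.383, 0.023, and -0.235 in XY1 to XY3. XO1 had the highest value and XY1 the next, as in the family sum. The part of this in the calls was not tested.

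In the deposited matrix with batch effects regressed out, the family sums, turned back to a linear scale, were 32917, 36079, and 31700 in XX1 to XX3, 40025, 39740, and 44855 in XO1 to XO3, and 31930, 27778, and 27116 in XY1 to XY3. Here the XO samples were above all others, and XO1 no longer stood apart. In the normalized matrix XO2 and XO3, at 23057 and 22002, were below all XX samples, and XO1 was above them.

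**Figure D5:**
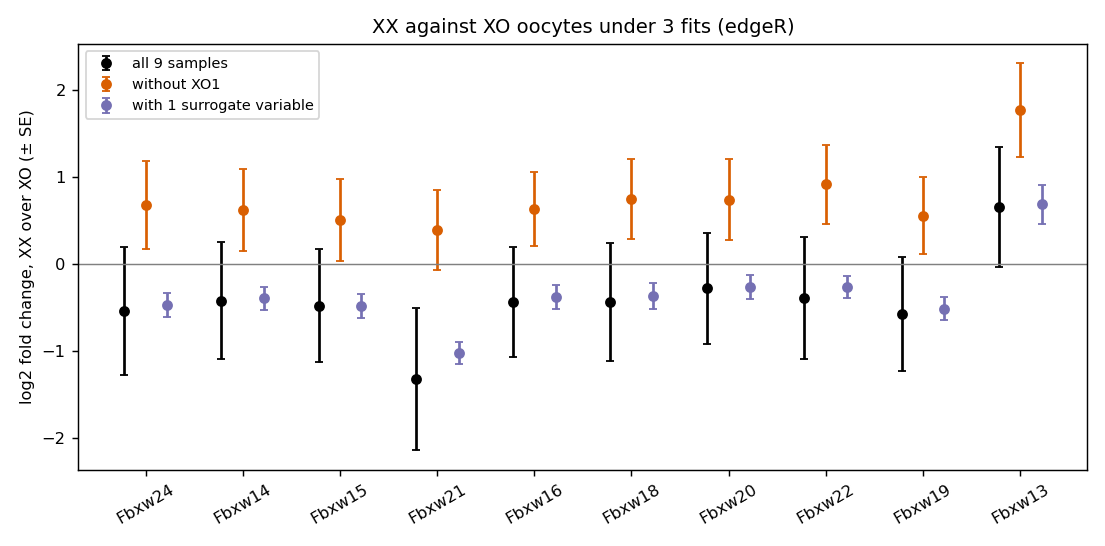
Log2 fold change of XX over XO oocytes with its SE (edgeR) for each of the 10 genes, from all 9 samples (black), without XO1 (orange), and with 1 surrogate variable as covariate (purple). Leaving out XO1 moves all 10 values up, that of Fbxw21 from -1.32 to 0.38, while the surrogate variable shortens the error bars.

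Between XX and XY oocytes, which came from the same cross, none of the 10 genes was called, beside 1.41% of all genes called higher and 4.39% called lower in XX oocytes. After adjustment, 0 members and 0.0819% of all genes were called. Levels overlapped for all 10 genes, against 15.8% of all genes without overlap. The log2 fold changes of XX over XY ranged from -0.23 ± 0.65 for Fbxw15 to 0.67 ± 0.69 for Fbxw13 (SE), with edgeR adjusted p-values of 1.00. The median was -0.015 over the 10 genes and -0.19 over all genes tested. With the surrogate variable, Fbxw13 alone was called higher in XX oocytes, at 0.74 ± 0.22 (edgeR adjusted p = 0.0286), beside 5.52% of all genes called higher and 17.4% called lower. In the fit with no surrogate variable, leaving out XX1 moved the log2 fold change of Fbxw13 from 0.67 to 0.19.

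XY and XO oocytes both have a single X chromosome, and differ in the Y chromosome and the cross. Again none of the 10 genes was called, beside 1.69% of all genes called higher and 8.24% called lower in XY oocytes. After adjustment, 0 members and 0.0364% of all genes were called, and all 10 genes overlapped, against 10.2% of all genes without overlap. The log2 fold changes of XY over XO were below 0 for all 10 genes, from -1.22 ± 0.82 for Fbxw21 (SE, edgeR adjusted p = 0.597) to -0.013 ± 0.69 for Fbxw13. The median was -0.44, against -0.30 over all genes tested.

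Without XO1 all 10 log2 fold changes of XY over XO turned positive, with a median of 0.75 against -0.21 over all genes, and 0 of the 10 were called, beside 5.69% of all genes called higher and 24.2% called lower. With the surrogate variable, 9 of 10 were called lower in XY oocytes, all but Fbxw13, beside 20.7% of all genes called lower and 7.71% called higher. In this fit Fbxw21 had the lowest value, at -1.06 ± 0.13 (SE). XX and XY oocytes are compared here with the same 3 XO samples.

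Between the first and the last of the 10 genes lay 9 further genes of the matrix, and 6 of them had a mean of 1 normalized CPM or more. None of these 6 was called in any of the 3 comparisons. Fbxw28 ranged over 2140–3946 normalized CPM for XX, 2191–8762 for XO, and 1625–4825 for XY, again with XO1 the highest. Gm42493, annotated as antisense at the start of Fbxw16, ranged over 2187–4816 for XX, 2085–12146 for XO, and 2474–5418 for XY. Gm42494 and Fbxw25 were also highest in XO1, with 1826 and 903 normalized CPM, as was the antisense gene Gm42756, with 35.2. The reads were aligned with their strand, so that Gm42493 can be told from Fbxw16.

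The other Fbxw genes and Btrc, which encodes the substrate receptor β-TrCP, numbered 15 in the matrix, and 9 of them were tested. The 3 with the highest means were Fbxw28 (3540 normalized CPM), Fbxw26 (1932), and Fbxw27 (1515), all on chromosome 9. Widely expressed members elsewhere in the genome were far lower. Fbxw11, a paralog of Btrc, had a mean of 37.7 normalized CPM, Btrc of 15.8, Fbxw7, the receptor for cyclin E, of 14.3, and Fbxw2 of 12.7. Btrc was the only one of the 9 that was called, lower in XX than XO oocytes (log2 fold change -1.72, edgeR adjusted p = 0.264). XO1, at 4.66 normalized CPM, was below the XX samples, while XO2 and XO3 were at 31.5 and 44.0, so the order of the XO samples was the opposite of that of the family. Without XO1, 3 of 11 tested genes of this list were called lower in XX than XO oocytes, beside 31.9% of all genes, a share near this background. In the fit of all 9 samples, 16.7% of all genes were called lower.

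Among 7266 other genes whose mean was 10 normalized CPM or more, those most like the family sum over the 9 samples were E330017A01Rik on chromosome 16 (Pearson r = 0.997 of log2 levels, Spearman rho = 0.95), Fbxw26 (r = 0.996), Nlrp4f on chromosome 13 (r = 0.996), Nlrp9b on chromosome 7 (r = 0.995), and Fbxw27 (r = 0.995). Without XO1 the r of these 5 genes was 0.987–0.995. Nlrp4f and Nlrp9b encode NLR proteins of oocytes. The samples share their libraries and scaling factors across genes, and the coefficients are a description.

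The partners of F-box proteins were measured from a list of 39 ubiquitin ligase genes, of which 32 were tested. In XX against XO oocytes 9 were called lower and 0 higher, in XX against XY oocytes 1 lower, and in XY against XO oocytes 6 lower, beside 16.7, 4.39, and 8.24% of all genes, and 0 passed adjustment in any comparison. The median log2 fold change of the list was -0.55, -0.08, and -0.49, against -0.46, -0.19, and -0.30 over all genes tested. Without XO1, an alternative chosen after seeing the data, 13, 2, and 11 of 33 genes were called in the same order, all lower. Beside them, 31.9% of all genes were called lower in XX against XO, 8.78% in XX against XY, and 24.2% in XY against XO oocytes.

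Of the 3 core subunits, only Rbx1 was called, in XX against XO oocytes, beside 16.7% of all genes called lower. Skp1a, the adaptor that binds the F-box, was at 6565 ± 127 normalized CPM for XX, 7014 ± 3297 for XO, and 6715 ± 1442 for XY oocytes (SD, n = 3 each). The scaffold Cul1 was at 1646 ± 369, 1503 ± 453, and 1664 ± 515. Rbx1, the RING subunit, was called lower in XX than XO oocytes, at 198 ± 25.8 against 335 ± 105 (log2 fold change -0.76, edgeR adjusted p = 0.253). The family sum exceeded the level of Skp1a in all 9 samples.

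Of 9 tested subunits of the COP9 signalosome, which removes Nedd8 from cullins, 4 were called lower in XX than XO oocytes, beside 16.7% of all genes, and the same 4 lower in XY than XO oocytes, beside 8.24%. They were Cops4, with log2 fold changes of -2.91 and -2.65, Cops5, with -1.64 and -1.16, Cops7a, with -1.34 and -1.30, and Gps1, with -2.66 and -2.66, and their edgeR adjusted p-values were 0.203–0.253 and 0.485–0.496. Cops5 carries the deneddylating activity. For Cops4, XO1 was at 6.21 normalized CPM against 111 and 263 in XO2 and XO3, and without XO1 8 of 9 subunits were called lower in each of these comparisons, beside 31.9 and 24.2% of all genes. The most abundant subunit, Cops2, was at 377 ± 70.9, 480 ± 291, and 398 ± 145 in XX, XO, and XY oocytes and was not called, and neither was Cops3, with a mean of 159 normalized CPM.

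Of 11 tested genes of neddylation and subunit exchange, Dcun1d3 (log2 fold change -0.78, edgeR adjusted p = 0.223) and Nae1 (-0.58, adjusted p = 0.264), a subunit of the Nedd8 activating enzyme, were called lower in XX than XO oocytes. Dcun1d1, which promotes neddylation, and Glmn, which binds Rbx1, had the highest means of this role, 1170 and 729 normalized CPM, and were not called. Among 5 tested ubiquitin-conjugating and related enzymes, Ube2d3 was lower in XX than XO (-0.94, edgeR adjusted p = 0.214) and in XY than XO oocytes (-0.83, adjusted p = 0.485), and Ube2r2 was lower in XX than XY oocytes (-0.66, adjusted p = 0.753). Ube2g1, with a mean of 120.2 normalized CPM, was not called. Of 4 other tested F-box genes, Fbxo43, an inhibitor of the anaphase promoting complex, was lower in XX than XO (-0.94, edgeR adjusted p = 0.244) and in XY than XO oocytes (-0.83, adjusted p = 0.501), while Fbxo11 and Fbxo30, with means of 127 and 63.2 normalized CPM, were not called. Beside these calls, 16.7% of all genes were called lower in XX than XO oocytes. For XY than XO oocytes this share was 8.24%, and for XX than XY oocytes 4.39%.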

How the data were processed

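RNA from 9 pools of mouse oocytes, 3 per genotype as labelled, was sequenced by the authors with Smart-seq3, which marks 5′ ends with UMIs. Reads were aligned by the authors with HISAT2 to GRCm38 in stranded mode, and UMIs at 5′ exons were deposited as counts for 28052 genes and 79 ERCC spike-ins, beside 1 further entry. The deposited normalized CPM signal (28051 genes) equals UMIs divided by the gene total and by a TMM factor computed on the spike-ins. The last deposited matrix holds log2 values after regression of batch effects by the authors, with 0.5 added.

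The 10 genes and all lists were chosen with earlier results of these data known. Counts of all genes were tested with edgeR 4.0.16 (quasi-likelihood, filterByExpr, spike-in factors, 1 mean per genotype, 9 samples, two-sided, tested on simulated data). Calls used an unadjusted p of 0.05, the threshold of the study, which fitted limma with surrogate variables. In the study, autosomal genes called higher in XY than XO oocytes outnumbered those called lower. Over all genes, the main fit here called 186 higher and 906 lower in XY oocytes. Adjusted p-values are Benjamini-Hochberg values over the 10993 genes tested. DESeq2 1.42.0 and sva 3.50.0 served as alternatives, as did other scalings, no filter, a replicate block, and the omission of each sample. The labels call the samples biological replicates. Named beside the 10 were neighbours averaging 1 normalized CPM or more, the 3 highest and any called gene among other Fbxw genes, the 5 genes most like the family sum, and called or abundant ubiquitin ligase genes. The columns were mapped by name, and the XO column without a number was matched through the library name. Sequences came from RefSeq and transcripts from Gencode. Intervals are 95% Wilson intervals of shares.

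Pairing by replicate number was checked by correlating deviations from genotype means. Same-numbered XY and XO samples correlated at 0.830, 0.278, and 0.773, and differently numbered ones at -0.824 to 0.721. Same-numbered XX and XO samples correlated at 0.468, -0.447, and 0.679, and XX and XY samples at 0.435, -0.060, and 0.726. A pairing of XY and XO samples would rest on these values alone, which do not establish it. The main fits were unpaired, and replicate numbers entered only in the replicate block.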

Additional observations from a re-analysis of the deposited data

How the results depend on the processing

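The count of 0 members called held under TMM factors on the genes, library totals, DESeq2, the adjusted threshold, and the replicate block in all 3 comparisons. Scaling to spike-in totals called 1 member in XX against XO oocytes (Fbxw13, higher), beside 2.64% of all genes called higher. Without a filter on low counts 1 was called in XX against XO and 1 in XY against XO oocytes (Fbxw21, lower). Beside them, 13.5 and 8.70% of all genes were called lower in these comparisons. With surrogate variables the counts were 8 in XX against XO, 1 in XX against XY, and 9 in XY against XO oocytes. Leaving out each sample gave 0 to 1 in XX against XO, with 1 only without XO1, and 0 in the other comparisons. The replicate block, fitted to all 9 samples, called 0 members and so changed no call.

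The log2 ratio of the mean family sums of XX over XO was -0.51, with 0.0078 under library totals, 0.45 under spike-in totals, and -0.86 to 0.62 when samples were left out, positive only without XO1. For XX over XY it was -0.0095, with 0.15 under TMM factors on the genes, 0.13 under library totals, 0.76 under spike-in totals, 0.21 in the batch-regressed matrix, and -0.27 to 0.46 when samples were left out, positive without XX3 (0.21) and without XY1 (0.46). For XY over XO it was -0.50 and -0.97 to 0.63, positive only without XO1. The pooled SD of replicates was 0.88 on this scale. Without XO1, 9 of 10 members changed the sign of their log2 fold change in XX against XO and 10 of 10 in XY against XO oocytes. The causes were not tested.

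The split of calls over all genes moved with the scaling. In XX against XO oocytes it was 154 higher and 1832 lower, 649 and 662 with TMM factors on the genes, 986 and 421 with library totals, and 290 and 53 with spike-in totals. In XX against XY oocytes it was 155 and 483, then 284 and 304, 277 and 333, and 244 and 40, and in XY against XO oocytes 186 and 906, then 593 and 404, 1001 and 214, and 63 and 73. The median log2 fold change of XX over XO was -0.46, -0.033, 0.10, and 0.42 in these scalings, and that of the 10 genes -0.44, -0.093, 0.083, and 0.52. With 3 samples per genotype and this spread, differences larger than the SE given could also be missed. The log2 fold change of Fbxw21 in XX over XO oocytes, -1.32, exceeded its SE and was not called.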

Other observations

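Fbxw23, annotated as a transcribed pseudogene between Fbxw19 and Fbxw15, had a pattern of its own. It was at 184–283 normalized CPM in XX samples, at 581, 147, and 154 in XO1 to XO3, and at 4528, 174, and 152 in XY1 to XY3. XY1 was 16.0 times as high as the highest XX sample, although the family sum of XY1 was 1.27 times that of the highest XX sample. Fbxw23 was not called in XX against XY oocytes (log2 fold change -2.72, edgeR adjusted p = 0.864), and without XO1 it was called lower in XX than XY (-2.68, edgeR adjusted p = 0.340) and higher in XY than XO oocytes (3.44, edgeR adjusted p = 0.0952). Among the XY samples, only XY1 was above the XX samples.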
